A study of Mus musculus with 4 samples.

Results

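The genes described here are 42 components of the photoreceptor cilium, chosen by name: Bardet-Biedl genes, intraflagellar transport genes, genes of the transition zone, carriers of ciliary cargo, axoneme genes and Usher genes. All 42 are among the 22558 gene symbols measured. The file of the injured retina at day 1, as used here, holds genes of chromosomes 1, 10, 11, 12 and 13 and some of chromosome 14, and 13 of the 42 are in it. The data are RNA-seq values from whole retinas of mice about 8 weeks old on a mixed C57BL/6 and 129 background. Every mouse carried 1 copy of R26R-DTA, an allele from which cells that have had Cre recombinase activity make the diphtheria toxin A fragment, DTA. Injured mice (Msi1-CreERT2/+; R26R-DTA/+) also carried CreERT2, a Cre that needs a ligand, driven from the Musashi-1 gene Msi1. Control mice (+/+; R26R-DTA/+) had no Cre. Each group was 1 library, taken 1 day or 5 days after injury from control and from DTA retina. The labels do not give the inducing agent, the retinal cells in which Cre acted or the number of mice per library.

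The photoreceptor outer segment is a modified primary cilium. A narrow connecting cilium, the equivalent of the transition zone of other cilia, joins it to the inner segment, and all its proteins pass this gate. Kinesin-2 motors and intraflagellar transport trains carry cargo along microtubules, the BBSome moves membrane proteins out of the cilium, and soluble carriers bring lipid-anchored proteins such as transducin and phosphodiesterase to it. Mutations in many of these genes cause retinal degeneration, alone or with disease of other organs, since most cells of the body have a primary cilium.

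The unit is FPKM (fragments per kilobase of transcript, normalised to library size), so levels can be compared between genes. Differences are taken on log2(FPKM + 1), DTA minus control unless stated. With 1 library per group there is no spread between mice and no test. Calls rest on size alone: a gene called higher or lower differed by 1 or more, reached a floor of 5 FPKM in either library, and differed by more than it did between the controls. Folds are ratios of FPKM. In whole tissue, fewer cells of a type and less RNA per cell cannot be told apart.

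The depth, estimated by taking the commonest low value as a single fragment, was 74.2 M (mega), 99.1 M, 35.7 M and 28.8 M fragments for control and DTA at day 1 and then control and DTA at day 5. The half-width of the authors' confidence interval had a median over the cilium genes of 3.73%, 2.47%, 5.56% and 5.67% of the level, libraries ordered as before, which covers counting and assignment in a library and not mice. The controls were not alike in adjoining tissue: 14 lens markers summed to 2321 FPKM at day 1 and 324 at day 5 (20.2 in day 5 DTA), and 9 pigment epithelium markers to 169 and 47.7 (21.5). Xist, which coats the inactive X, stood at 0.00596, 53.7 and 60.4 FPKM in day 1 control, day 5 control and day 5 DTA. The Y-linked Ddx3y stood at 15.6, 0.175 and 0.275 FPKM in the same order, so the controls also differed in sex-linked expression. The difference between the controls that enters the call rule therefore spans this difference too. Rod markers, which define this tissue, were abundant, with 19 of them summing to 17483 and 21333 FPKM in the controls of day 1 and day 5. Motile cilia were scarcely represented: 8 of their genes summed to 4.24, 5.07 and 6.29 FPKM in day 1 control, day 5 control and day 5 DTA.

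In control retina the cilium genes spanned several orders of magnitude. The most abundant were Unc119 (1024 and 1094 FPKM in the controls of day 1 and day 5), a carrier of lipid-anchored transducin, and Tulp1 (345 and 393), a tubby-like protein of photoreceptors. The lowest was Ush1c, the scaffold protein harmonin, at 0.0198 and 0.0178 FPKM. In the day 5 control 8 genes stood at 50 FPKM or more and 34 below. The BBSome genes, intraflagellar transport genes and motors all lay under 50, while 4 of the 5 cargo carriers and tubby genes and all 3 axoneme genes lay above. None of the 37 cilium genes at 5 FPKM or more was called between the controls, where 2.57% of all genes were (0.858% higher and 1.72% lower at day 5), and the largest difference was that of Bbs5 (-0.73, day 5 minus day 1).

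**Figure D1:**
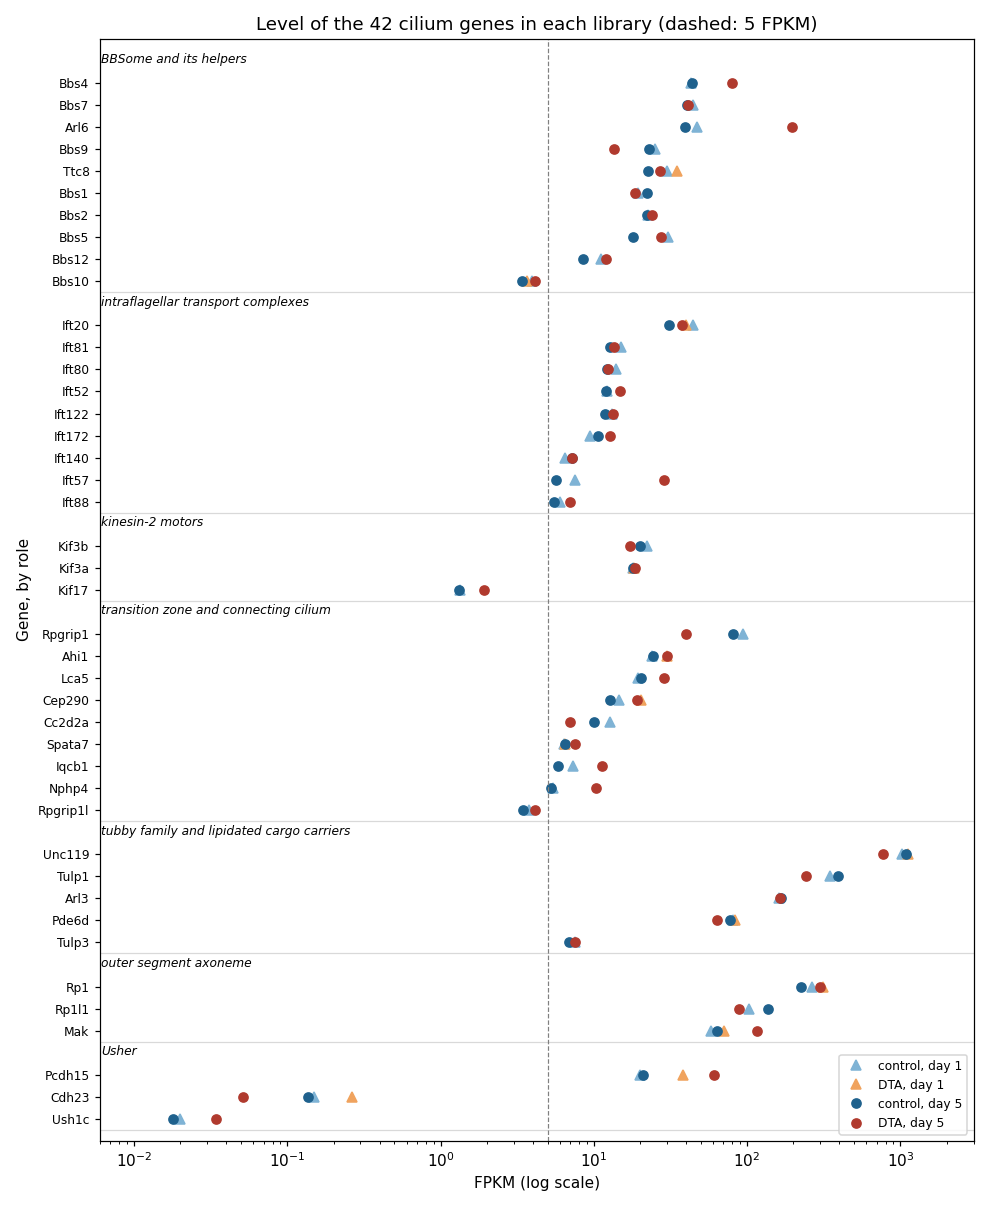
Level of each of the 42 cilium genes (rows, grouped by role) in each library, in FPKM on a log axis; triangles are day 1, circles day 5, blue control and orange or red DTA, 1 library each. The red circles of Arl6, Ift57 and Pcdh15 lie well to the right of the blue symbols and that of Rpgrip1 to the left.

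At day 5 the cilium genes did not move as a block. Arl6, Ift57 and Pcdh15 were called higher in DTA and Rpgrip1 lower, 4 of the 37 genes at 5 FPKM or more. Of all 9895 genes at that level 8.51% were called (6.74% higher and 1.77% lower), so the share among the cilium genes, 10.8%, was near the background. The median difference was 0.19 over these 37 genes and 0.26 over all 9895. Of the 42 genes, 31 lay above 0, which became 22 when the libraries were scaled by their median ratio, a step that lowered the day 5 DTA values by 0.24 on the log2 scale. Of the 42 genes, 28 differed by 0.5 or less in size and 17 by 0.25 or less.

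**Figure D2:**
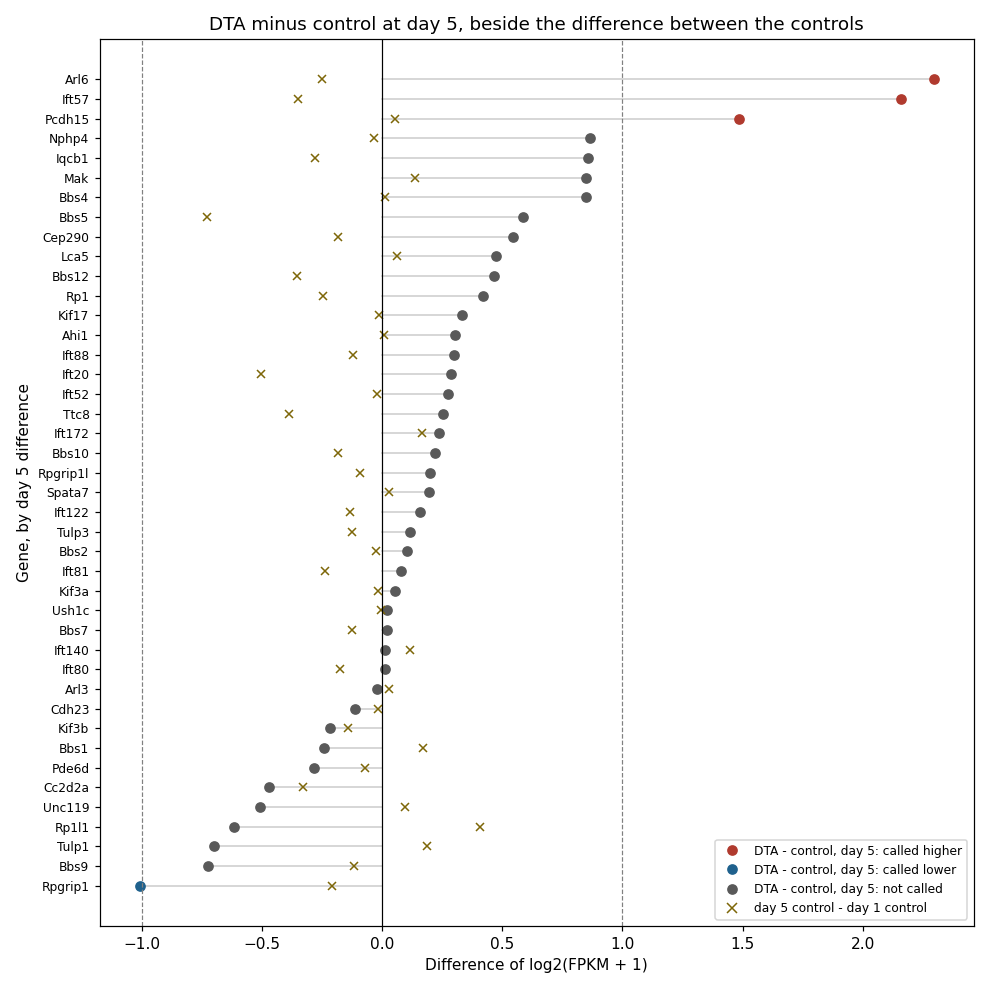
DTA minus control at day 5 (circles) and day 5 control minus day 1 control (crosses) for the 42 cilium genes, as differences of log2(FPKM + 1); dashed lines mark 1 and -1. The circles of Arl6 (2.30), Ift57 (2.16) and Pcdh15 (1.49) lie beyond 1, that of Rpgrip1 (-1.01) at the lower line, and no cross reaches either line.

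Arl6 encodes the small GTPase that recruits the BBSome to membranes (mm9, chromosome 16, 59613147 to 59639165, minus strand). It stood at 47.0 and 39.4 FPKM in the controls of day 1 and day 5 and at 198 in DTA of day 5. The injured retina was far above both controls, 5.01-fold over the control of the same day, a difference of 2.30. An uncharacterised transcript that overlaps its 5′ end, 4930547E14Rik, stood at no more than 0.271 FPKM in these libraries.

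Ift57, a subunit of the intraflagellar transport B complex (mm9, chromosome 16, 49699407 to 49765239, plus strand), stood at 7.52 and 5.68 FPKM in the controls of day 1 and day 5 and at 28.8 in DTA of day 5. It was thus 5.08-fold higher, a difference of 2.16, while the other 8 genes of both transport complexes differed by 0.01 to 0.30. In the controls Ift57 was among the lowest of these transport genes, and in day 5 DTA only Ift20 (37.8) stood above it. No other listed gene overlaps Ift57.

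Pcdh15, a cadherin of the Usher syndrome group (mm9, chromosome 10, 73284615 to 74112477, plus strand), stood at 20.1 (control) and 38.3 FPKM (DTA) at day 1 and at 20.9 and 60.5 at day 5. The controls were close to each other and both injured retinas lay above them. Its difference was 0.90 (1.90-fold) at day 1, under the size needed for a call, and 1.49 (2.89-fold) at day 5.

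Rpgrip1 encodes a connecting cilium protein that anchors the retinitis pigmentosa GTPase regulator (mm9, chromosome 14, 52730578 to 52781014, plus strand). It stood at 93.4 and 80.7 FPKM in the controls of day 1 and day 5 and at 39.6 in DTA of day 5. The injured retina was 2.04-fold below the control of the same day, a difference of -1.01 that lies just inside the size rule and became -0.94, not called, with a pseudocount of 5. Its end overlaps that of Supt16h on the other strand by 921 bases, and Supt16h stood at 22.7 and 24.6 FPKM in the day 5 libraries.

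The upstream sequences of these 4 genes are shown because the genes stand apart from the rest, together with that of Bbs7, which shares a motif with Ift57. They are the 250 bases before the annotated start, from RefSeq on build GRCm38.p6, a build other than that of the deposited loci, and 37 of the 42 genes have such an entry. Capitals mark 2 motifs, searched on both strands. The first is the X-box half-site GTTGCC of the RFX transcription factors, which control ciliary genes, or a pair of GTTGCC and GGNAAC with 0 to 3 bases between them. The second is TAATCC, a core of sites for the photoreceptor factor Crx.
Ift57, chr16:49699044-49699293, plus strand: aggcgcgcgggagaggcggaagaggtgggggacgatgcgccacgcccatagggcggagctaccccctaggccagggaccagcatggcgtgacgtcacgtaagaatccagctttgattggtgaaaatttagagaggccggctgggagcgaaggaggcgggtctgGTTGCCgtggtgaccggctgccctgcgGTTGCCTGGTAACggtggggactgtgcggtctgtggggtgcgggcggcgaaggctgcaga
Bbs7, chr3:36613390-36613639, minus strand: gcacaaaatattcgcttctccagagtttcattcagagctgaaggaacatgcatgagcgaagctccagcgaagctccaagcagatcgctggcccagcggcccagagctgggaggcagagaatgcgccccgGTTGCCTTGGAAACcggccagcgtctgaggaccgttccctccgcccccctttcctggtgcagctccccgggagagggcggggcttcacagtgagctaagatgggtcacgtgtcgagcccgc
Arl6, chr16:59639410-59639659, minus strand: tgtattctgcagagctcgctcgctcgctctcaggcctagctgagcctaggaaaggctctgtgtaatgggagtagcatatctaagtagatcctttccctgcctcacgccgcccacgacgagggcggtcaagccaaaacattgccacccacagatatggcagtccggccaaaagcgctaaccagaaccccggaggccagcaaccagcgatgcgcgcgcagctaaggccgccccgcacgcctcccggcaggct
Pcdh15, chr10:73821617-73821866, plus strand: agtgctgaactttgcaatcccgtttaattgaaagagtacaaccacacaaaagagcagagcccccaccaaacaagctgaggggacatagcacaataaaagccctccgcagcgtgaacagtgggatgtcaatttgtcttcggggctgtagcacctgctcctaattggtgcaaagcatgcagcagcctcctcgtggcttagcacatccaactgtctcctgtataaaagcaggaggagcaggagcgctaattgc
Rpgrip1, chr14:52110653-52110902, plus strand: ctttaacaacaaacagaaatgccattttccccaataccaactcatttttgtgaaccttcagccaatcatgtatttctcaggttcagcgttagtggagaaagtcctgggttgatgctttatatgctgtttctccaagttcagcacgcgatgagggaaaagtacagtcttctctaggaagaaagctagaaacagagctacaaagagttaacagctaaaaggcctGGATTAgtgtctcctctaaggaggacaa

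Ift57 and Bbs7 both hold a paired X-box, starting 60 and 121 bases before the start site, and Ift57 holds a second half-site at 87. The pair was found in 2 of 45 windows of these cilium genes (4.44%) and in 0.457% of all 32851 windows. Among the other cilium genes described below it was found in 5 of 65 windows (7.69%). The half-site was found in 5 of the 45 windows (11.1%), in 14 of those 65 (21.5%) and in 10.4% of all windows. Bbs7 differed by 0.02 at day 5 and Ift57 by 2.16, so the genes with this pair include a called one and one close to the control. The Arl6 and Pcdh15 windows hold neither motif. Rpgrip1 holds the Crx core, read on the opposite strand as GGATTA, 28 bases before its start. The core was found in 8.89% of the windows of cilium genes, those of Bbs1, Rpgrip1, Unc119 and Mak, and in 6.25% of all windows. These 4 genes differed by -0.24, -1.01, -0.51 and 0.85.

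The BBSome is a coat of 8 subunits, 7 of them among these genes, and its assembly needs the chaperonin-like proteins of Bbs10 and Bbs12. Bbs4 stood at 43.3 and 43.7 FPKM in the controls of day 1 and day 5 and at 79.4 in DTA of day 5, a difference of 0.85 that was not called. Both controls were nearly equal and the injured retina higher. Bbs9 went the other way, at 24.9, 23.0 and 13.5 FPKM (-0.72). Bbs7 kept to 44.5, 40.8 and 41.4 FPKM. Bbs5 stood at 30.3, 17.9 and 27.4 FPKM, so the day 5 control was the library apart and its difference of 0.59 is smaller than that between the controls. Subunits of the same coat thus differed by -0.72 to 0.85. The remaining ones, Bbs1, Bbs2 and Ttc8, lay between -0.24 and 0.25, Bbs12 at 0.46 and Bbs10, under 5 FPKM, at 0.22. Of the 10 genes 8 lay above 0, or 6 with median ratio scaling and 5 if set against control retina of day 1.

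Intraflagellar transport trains consist of an A complex (Ift122 and Ift140 here) and a B complex (Ift20, Ift52, Ift57, Ift80, Ift81, Ift88 and Ift172). Apart from Ift57 they lay close to control. Ift20, which also works at the Golgi apparatus, was the most abundant, at 44.1 FPKM in control and 40.1 in DTA at day 1, and at 30.8 and 37.8 at day 5. The day 5 control was the lowest of the 4 libraries. Ift88 stood at 6.01, 5.46 and 6.96 FPKM and Ift81 at 15.1, 12.7 and 13.4 in the order day 1 control, day 5 control and day 5 DTA. All 9 genes lay above 0 at day 5, but 5 of 9 with median ratio scaling, and the median of 0.24 became 0.01. Kif3a, a motor subunit of heterotrimeric kinesin-2, stood at 18.1, 18.4, 17.9 and 18.6 FPKM in control and DTA of day 1 and control and DTA of day 5, the narrowest spread of the 13 genes measured in all libraries. Its partner Kif3b stood at 22.2, 20.0 and 17.1 in both controls and day 5 DTA. Kif17, the homodimeric motor, lay at 1.34, 1.32 and 1.92 FPKM, under the floor.

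Other genes of the transition zone lay on both sides of control. Nphp4, a nephronophthisis gene, stood at 5.39 and 5.25 FPKM in the controls of day 1 and day 5 and at 10.4 in DTA of day 5, a difference of 0.87 just outside the size rule. Iqcb1, which encodes a partner of Cep290, stood at 7.26, 5.81 and 11.3 FPKM (0.86). Both were above either control in the injured retina. Cep290, a large tether between membrane and microtubules in the connecting cilium, stood at 14.5 (control) and 20.2 FPKM (DTA) at day 1 and at 12.7 and 19.0 at day 5. Both injured retinas lay above both controls, by 0.45 at day 1 and 0.55 at day 5.

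The ciliary protein gene Lca5 stood at 19.5 and 20.4 FPKM in the controls of day 1 and day 5 and at 28.7 in DTA of day 5 (0.47). Ahi1, a Joubert syndrome gene, stood at 24.0, 29.9, 24.2 and 30.1 FPKM in control and DTA of day 1 and control and DTA of day 5, with the same difference of 0.30 on both days. Cc2d2a was lower in day 5 DTA, at 12.8 and 10.0004 FPKM in the controls and 6.94 in DTA, 1.44-fold below the control of the same day (-0.47, against -0.33 between the controls). Spata7 stood at 6.34, 6.47, 6.49 and 7.57 FPKM in control and DTA of day 1 and control and DTA of day 5. It differed by 0.03 at day 1 and 0.19 at day 5. Rpgrip1l, at 3.47 and 4.13 FPKM in the day 5 libraries, differed by 0.20. Of the 9 genes 7 lay above 0, with a median of 0.30. With median ratio scaling 6 lay above 0 and the median became 0.07.

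Carriers of lipid-anchored proteins and tubby-like proteins lay mostly below control at day 5. Unc119 stood at 1024 (control) and 1125 FPKM (DTA) at day 1 and at 1094 and 769 at day 5. The first 3 libraries were close together and day 5 DTA was 1.42-fold below its control (-0.51). Tulp1, required for traffic of rhodopsin to the outer segment, stood at 345, 393 and 242 FPKM in day 1 control, day 5 control and day 5 DTA (-0.70). Pde6d, the carrier of prenylated proteins such as rod phosphodiesterase, stood at 80.9, 83.7, 77.1 and 63.1 FPKM in all 4 libraries (-0.28 at day 5). Arl3, the GTPase that releases cargo from both carriers, showed no such difference, at 162 and 166 FPKM in the controls of day 1 and day 5 and at 163 in DTA of day 5. Tulp3, a tubby-like adaptor found in most ciliated cells, stood at 7.58, 6.88 and 7.54 FPKM. Of the 5 genes 4 lay below 0 (all 5 with median ratio scaling), with a median of -0.28, and none was called.

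The axoneme genes diverged. Rp1 and Rp1l1 encode paired doublecortin-domain proteins that bind the outer segment axoneme. Rp1 stood at 266 (control) and 312 FPKM (DTA) at day 1 and at 225 and 301 at day 5, while Rp1l1 stood at 103, 137 and 89.1 in day 1 control, day 5 control and day 5 DTA. The difference at day 5 was 0.42 for Rp1 and -0.62 for Rp1l1, and for Rp1l1 the controls differed by 0.41. Mak, a kinase that restrains the length of the axoneme, stood at 58.1, 70.7, 64.0 and 116 FPKM in all 4 libraries. Its level was highest in day 5 DTA, 1.81-fold over control (0.85), not called.

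The remaining Usher genes were scarcely expressed. Cdh23, the partner of Pcdh15 in the tip links of the inner ear, stood at 0.149 (control) and 0.263 FPKM (DTA) at day 1 and at 0.135 and 0.0514 at day 5. Ush1c stood at 0.0198, 0.0178 and 0.0340 FPKM in both controls and day 5 DTA, which on its longest transcript is about 4.52, 1.95 and 3.02 fragments. At so few fragments Ush1c gives no usable fold, and Cdh23 lay far under the floor in every library. Pcdh15 and its inner ear partner thus stood at 60.5 and 0.0514 FPKM in the same retina.

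Rod marker transcripts were lower in the injured retina and microglia markers higher. At day 5, 14 of 19 rod markers were called lower, with a median difference of -1.58, and their sum was 6694 FPKM in DTA against 21333 in control. Of 11 cone markers 8 lay below 0, with a median of -0.85. Of the 10 cone markers at 5 FPKM or more 5 were called lower and 1 higher. All 11 microglia and macrophage markers lay above 0, and the 10 at 5 FPKM or more were all called higher. Their sum over the 11 was 21.7, 21.9 and 173 FPKM in day 1 control, day 5 control and day 5 DTA. The 10 Müller glia markers summed to 2071, 1650 and 744 FPKM, and to 1028, 762 and 585 without Glul, glutamine synthetase. Of the 10, Glul and Rlbp1 were called lower, and the median was -0.41 at day 5 and -0.41 between the controls. None of these markers was at 0 in any of the 3 libraries. The part of these shifts in the cilium gene values was not tested.

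Among the cilium genes the abundant ones lay lower. The 8 genes at 50 FPKM or more in the day 5 control had a median difference of -0.40, with 6 of 8 below 0, and the 34 genes under 50 FPKM had a median of 0.23, with 5 of 34 below 0. This division at 50 FPKM was chosen after the values were seen. Over the 37 genes at the floor the rank correlation of level in the day 5 control with the difference was -0.35 (Pearson r -0.35), and with the level in the day 1 control, which does not enter the difference, -0.32 (-0.33). The points share libraries, so these values describe this set. The abundant genes were still nearer to control than most rod markers: the lowest, Rpgrip1 at -1.01, lay above the rod median, and Rp1 and Mak lay above 0.

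**Figure D3:**
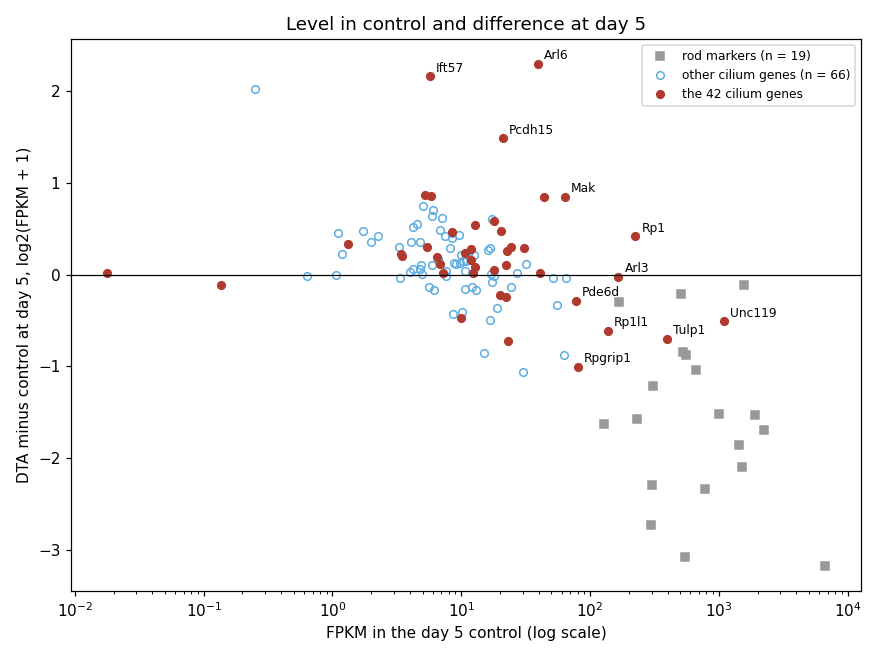
Difference at day 5 (DTA minus control, log2(FPKM + 1)) against FPKM in the day 5 control (log axis) for the 42 cilium genes (red), 66 other cilium genes (open blue) and 19 rod markers (grey squares). Most of the cilium genes lie near 0, with Arl6, Ift57 and Pcdh15 above and the abundant Rpgrip1, Tulp1, Rp1l1 and Unc119 below 0 but above the rod marker median of -1.58.

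At day 1, 13 of the cilium genes were measured in both libraries, and 11 of these stood at 5 FPKM or more. Arl6, Ift57 and Rpgrip1 had a level in the day 1 control and none in the shorter DTA file. None of the 11 was called, against 2.67% of the 2623 genes of that file's chromosomes at that level (2.06% higher and 0.610% lower). The median over these 11 genes was 0.22, and 0.05 over the 2623. The largest differences were those of Pcdh15 (0.90), Cep290 (0.45), Ahi1 (0.30) and Mak (0.28), and the lowest that of Ift20 (-0.14). The rod markers in this file, 5 in number, summed to 4399 FPKM in control and 4371 in DTA.

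For these 13 genes the same measure at day 5, taken against the other control library, can be set beside that of day 1. Pcdh15 and Mak stood further from control at day 5 (1.49 and 0.85), Cep290 (0.45 and 0.55) and Ahi1 (0.30 on both days) about as far. Ttc8 differed by 0.22 and 0.25, each smaller in size than its difference between the controls (-0.39), and Kif3a by 0.02 and 0.05. Unc119 (0.14 and -0.51) and Pde6d (0.05 and -0.28) lay above control at day 1 and below it at day 5, and Ift20 (-0.14 and 0.29) and Bbs10 (-0.09 and 0.22) the reverse. The differences of Pde6d, Ift20 and Bbs10 at day 1 were no larger than those between their controls. With median ratio scaling that held for Unc119 as well (0.09 against 0.15). At day 5 the difference of Ift20 was also smaller in size than that between its controls (-0.50).

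**Figure D4:**
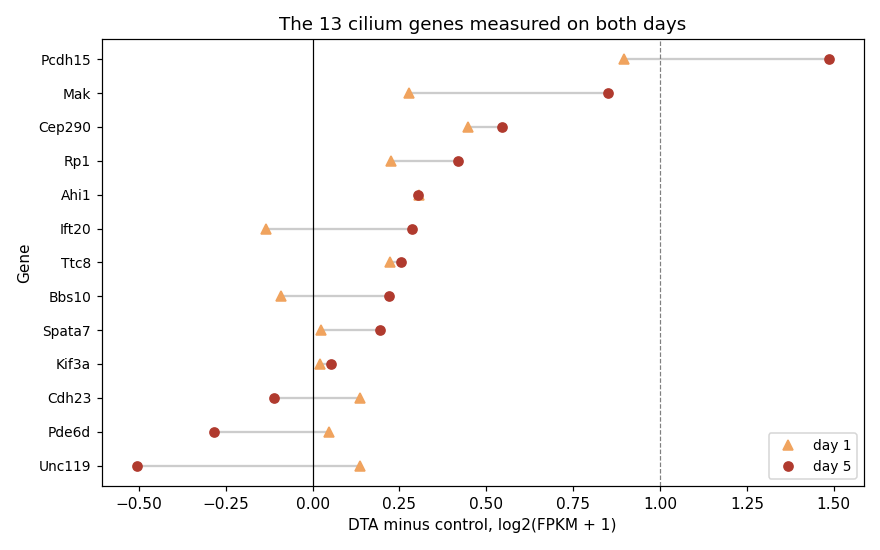
DTA minus control, log2(FPKM + 1), at day 1 (orange triangles) and day 5 (red circles) for the 13 cilium genes measured on both days; the dashed line marks 1. Pcdh15 is the farthest to the right on both days (0.90 and 1.49), and Unc119 moves from 0.14 to -0.51.

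The authors' confidence bounds give a second view, of counting and assignment within a library. At day 5 the bounds of DTA and control were apart for 26 of the 37 cilium genes at the floor, 17 higher and 9 lower. Of all genes at that level 66.5% had bounds apart (53.4% higher and 13.0% lower). Between the controls the bounds were apart for 23 of 37 cilium genes, 6 higher and 17 lower at day 5, and for 46.0% of all genes (15.4% higher and 30.5% lower). Bounds that do not overlap were therefore common between control retinas too. The deposited bounds do not always hold the deposited level: in the day 5 control the FPKM lay above the upper bound for 10 of the 42 genes and below the lower one for 1, and in day 5 DTA for 11 and 1. Arl6 and Unc119 are among those above, with upper bounds of 177 and 663 in day 5 DTA against levels of 198 and 769 FPKM. At day 1 they were apart for 7 of 11 cilium genes, all higher in DTA, where the background was 50.6% (33.6% higher and 17.0% lower).

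Another 66 genes of the primary cilium from a list of 70 were measured: further BBSome, transport, transition zone, carrier, kinase and Usher genes. At day 5 1 of the 53 at 5 FPKM or more was called, Cep164, which was lower. That is 1.89%, where 8.51% of all genes were called and 1.77% called lower. The median over the 66 was 0.12 (-0.10 with median ratio scaling). Cep164, a protein of the distal appendages of the basal body, stood at 24.2, 29.9 and 13.8 FPKM in day 1 control, day 5 control and day 5 DTA (-1.06, but -0.77 and not called against the day 1 control). Of 14 further intraflagellar transport genes 11 stood at 5 FPKM or more and none of these was called, with a median over the 14 of 0.14 (-0.08 with median ratio scaling). In the transition zone group, which holds Cep164, 17 of 22 lay above 0, or 12 with median ratio scaling. The median was 0.38 over the 22 and 0.26 over the 20 at 5 FPKM or more, beside 0.26 over all genes at that level.

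RFX factors were listed because they bind the X-box. Of 6 measured, 5 reached 5 FPKM in either day 5 library and 1 of these was called, Rfx2, which was higher. Of all genes at that level 8.51% were called and 6.74% called higher. Rfx2 stood at 1.71 and 2.15 FPKM in the controls of day 1 and day 5 and at 11.5 in DTA of day 5, 5.37-fold higher. Its part in the cilium gene values was not tested. The others lay between -0.10 and 0.21, with Rfx1 at 15.2 and 17.8 FPKM and Rfx3 at 4.77 and 5.01 in the day 5 libraries.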

How the data were processed

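Per the submitters' processing notes the deposited files were made with CASAVA 1.8.2, bcl2fastq 1.8.4 and Cufflinks 2.1.1 on mm9. The role of each, the aligner and the annotation were not given in the sources used here. FPKM values and their bounds were computed by the authors, per the file headers. All lines of the cilium genes had status OK. FAIL and HIDATA lines of other genes were read as missing, and loci of a symbol were summed. FPKM is relative to the library, so a drop in abundant rod transcripts can raise other values. Locus starts were printed with 1 added.

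Depth was estimated from the commonest low value of FPKM times length, over genes with 1 transcript longer than 1500 bases. The call rule was tested on simulated data, with noise taken from the authors' bounds and with changes larger than the size rule. That test did not cover spread between mice or changes close to the size needed for a call. minimap2 found no copy of at least 300 bases and 90% identity elsewhere in mm9 for any of the 42 genes' longest coding transcripts. Alternatives were pseudocounts of 0.1 and 5, floors of 1 and 10 FPKM or none, median ratio scaling, scaling to the sum without rod markers and the 100 most abundant genes, the other control or the mean of both, no requirement on the controls, and non-overlapping bounds. The genes and lists were chosen with earlier results of these data known. Values are printed for called genes, genes of the short file, and the most abundant and most different of each role. Python 3.11.15, pandas 2.3.3 and scipy 1.17.1 were used.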

Additional observations from a re-analysis of the deposited data

Results flagged for a closer look

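Unc119 was above control at day 1 (0.14) and below it at day 5 (-0.51), each by more than its difference between the controls (0.09). The day 5 difference minus the day 1 difference was -0.64. The signs stayed opposite under both scalings, both other pseudocounts and against the control of the other day. The day 1 difference was smaller than that between the controls with median ratio scaling (0.09 against 0.15), with the sum without rod markers and abundant genes (0.06 against 0.18) and against the day 5 control (0.04 against 0.09). With 1 library per group and day this change of direction was not tested.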

How the results depend on the processing

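Arl6, Ift57 and Pcdh15 were called higher at day 5 under all 11 alternatives, with Ift57 between 1.66 and 2.32. The lower floors and no requirement on the controls only loosen the rule, so they could not remove a call. The floor of 10 FPKM lies under the day 5 DTA levels of these genes and could not either. All 11 alternatives rest on the same day 5 DTA library. Rpgrip1 was called lower under each except a pseudocount of 5 (-0.94, leaving 0 lower). The median over the 42 genes at day 5 was 0.20, and 0.00878 with median ratio scaling, 0.0249 with the sum without rod markers and abundant genes, 0.0380 against the day 1 control and 0.0919 against the mean of both. At day 1 it was 0.14 over 13 genes, 0.23 with a pseudocount of 0.1 and 0.15 against the day 5 control. Of the other cilium genes 1 was called, 0 with a pseudocount of 5, 2 with a floor of 1 FPKM or no floor (Myo7a added, a difference of 2.02) and 3 under either scaling (with Fam161a). Against the day 1 control or the mean of both the 1 called was Fam161a in place of Cep164. Over all genes tested at day 5, 79.2% of calls were higher, and 62.1% with median ratio scaling and 64.8% with the sum scaling. No paired analysis was possible because each group is 1 library. Depth limits Ush1c, and the spread between mice is unknown for every gene.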
